A study of Homo sapiens with 18 samples.

Results

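UFMylation is the attachment of UFM1, a small protein related to ubiquitin, to other proteins. Its genes were taken by name as the modifier UFM1, the conjugating enzyme UFC1, the ligase UFL1, the ligase partners DDRGK1 and CDK5RAP3, and the proteases UFSP1 and UFSP2 rather than by a threshold on their values. The choice was made with earlier results of these data known. Counts of members called are therefore set beside all genes only as a description. The members are 7 of the 57736 genes in the table. All 7 are among the 17317 genes left for testing by the low-count filter of edgeR. UFSP1 passed it with only 4 to 62 counts per library.

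The 18 libraries came from A1847, a human ovarian cancer cell line, in 3 genotypes. Control cells are labelled wild type for CARM1 and XBP1. CARM1 knockout cells were made with a lentiviral CRISPR guide, and XBP1 knockdown cells with a short hairpin RNA. Cells of each genotype received vehicle or 5 μg/ml tunicamycin for 8 h, with 3 replicate libraries per condition. CARM1 is an arginine methyltransferase that assists transcription, and XBP1 encodes a transcription factor of the endoplasmic reticulum (ER) stress response. Tunicamycin inhibits N-linked glycosylation, so that unfolded proteins accumulate in the ER. Whether the control cells carried an empty vector and whether the knockout cells are 1 clone is not given in the sources used here. The study describes its experiments in general as independent repeats, while the labels do not say of these replicate libraries that they were separate cultures. If they were not, p-values measure only a technical spread between libraries. The 3′ ends of the mRNA were sequenced to 9367462 to 13917212 counts per library.

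UFM1 is made as a precursor that UFSP1 or UFSP2 cuts to its active form. UFC1 then carries it, and UFL1 attaches it together with CDK5RAP3 and with DDRGK1, which holds the ligase at the ER membrane. UFSP2 also removes it from its targets. Ribosomes docked at the ER are the best known target, and the pathway takes part in the quality control of protein synthesis there.

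CARM1 was at 160.0 to 165 CPM (counts scaled to 1000000 per library, with the library total adjusted by the TMM method) in vehicle-treated control libraries and at 71.6 to 77.7 CPM in the knockout libraries with vehicle. XBP1 was at 43.2 to 51.1 CPM in the same control libraries and at 24.1 to 26.5 CPM in the knockdown libraries with vehicle. Both transcripts were thus reduced and still detected. With tunicamycin CARM1 averaged 71.2 CPM in the knockout and 135 CPM in control. XBP1 then averaged 71.6 CPM in the knockdown and 149.8 CPM in control. With vehicle XBP1 was also lower in the CARM1 knockout (−0.47 in log2, adjusted p = 0.00133, edgeR), and with tunicamycin not called (−0.06). In the knockdown CARM1 was higher, by 0.22 with vehicle and 0.37 with tunicamycin. The study examined CARM1 and XBP1s, the protein made from spliced XBP1 mRNA, by immunoblot. It reported that CARM1 knockout did not affect the induction of XBP1s by tunicamycin. Transcript counts do not measure protein, and counts per gene do not separate spliced from unspliced XBP1. The CARM1 knockout libraries stood apart from the others also in cell type markers. The sum of 9 ovarian epithelial markers was 311 to 332 CPM in control cells with vehicle and 463 to 489 CPM with tunicamycin. In the knockout it was 2679 to 2773 and 2252 to 2356 CPM, and in the knockdown 131 to 144 and 199 to 215 CPM. MUC16 was at 0 in every library, and PAX8, WT1, KRT7, KRT19 and CDH1 were at 0 in at least 1 library. Of 9 markers of other cell types 8 were found in the table, and their sum was lower with tunicamycin than with vehicle in each genotype. It was 811 to 889 and then 714 to 741 CPM in control, 473 to 510 and then 195 to 221 CPM in knockout, and 815 to 862 and then 583 to 610 CPM in knockdown cells. CD3E was at 0 throughout, while COL1A1 ranged from 4.47 to 494 CPM and COL1A2 from 0 to 867 CPM over the 18 libraries. The sum therefore does not show how single markers differed. The part of these differences in the results below was not tested.

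Tunicamycin raised the transcripts of the modifier, the ligase and the ligase partner CDK5RAP3 in cells of all 3 genotypes, and left no member lower in the test. In control cells 4 of the 7 members rose, by 3.17-fold for UFL1, 2.30-fold for UFM1, 2.03-fold for CDK5RAP3 and 1.5-fold for UFSP2. Among all genes tested there, 22.0% were called higher and 19.9% lower at a false discovery rate (FDR) of 5% in edgeR's quasi-likelihood test. In CARM1 knockout cells 3 members rose, UFL1, UFM1 and CDK5RAP3, where 20.6% of all genes were called higher and 18.8% lower. With XBP1 knocked down 5 members rose, these 3 with UFSP2 and DDRGK1, where 19.2% of all genes were called higher and 19.0% lower. The count of lower members was 0 in each of these comparisons by edgeR, also at an unadjusted p under 0.05, and 0 by DESeq2. The median log2 fold change over the 7 members was 0.59 in control, 0.68 in knockout and 0.47 in knockdown cells, beside 0 over all genes tested. The knockout median is the value of UFSP1 itself, which was not called, has few counts and ranged from 0.39 to 1.04 when single libraries were left out, so that it does not show a larger response than in control cells. UFC1 and UFSP1 did not pass the test in any genotype. The libraries are bulk RNA of a single cell line, so a large change in some cells and a smaller change in all cells cannot be told apart.

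**Figure D1:**
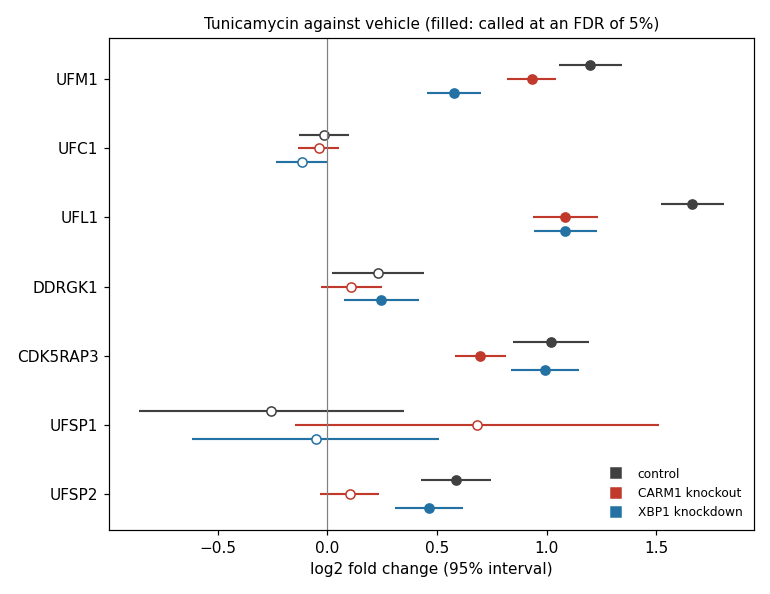
Log2 fold change of the 7 members between tunicamycin and vehicle (horizontal axis, with 95% intervals) in control, CARM1 knockout and XBP1 knockdown cells; filled symbols were called at an FDR of 5%. UFL1 lies at 1.67 in control cells and at 1.09 in both other genotypes, UFM1 lies at 1.2, 0.93 and 0.58 in control, knockout and knockdown cells, and UFC1 lies near 0 in each genotype.

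**Figure D2:**
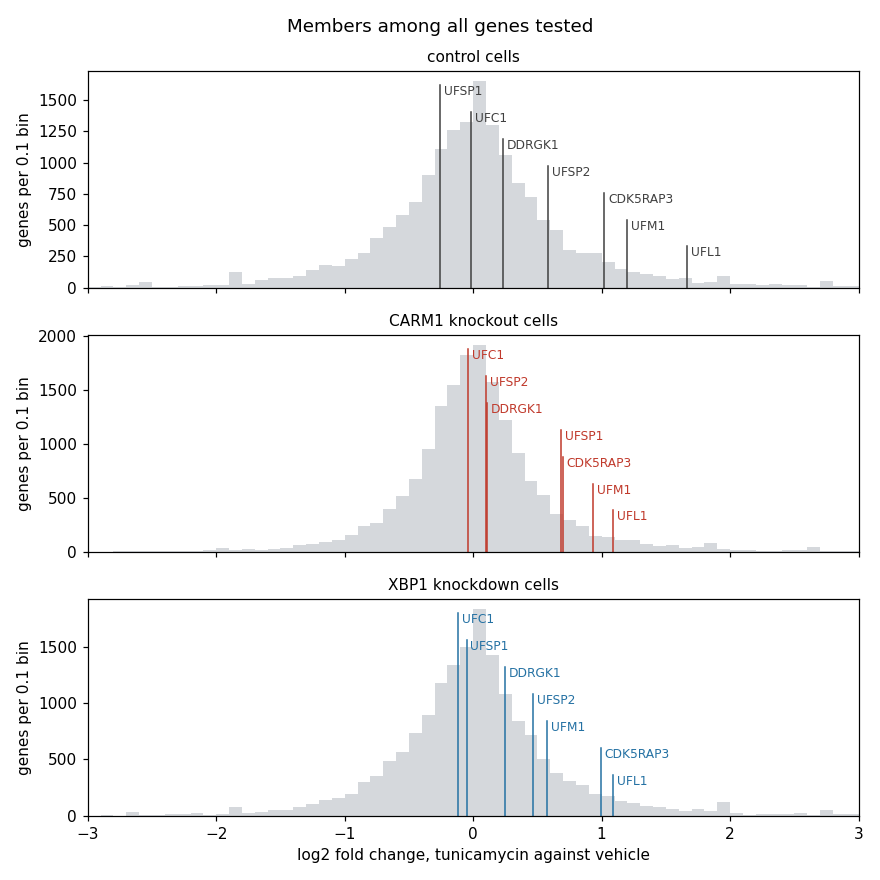
Histograms of the log2 fold change between tunicamycin and vehicle for all 17317 genes tested (bars, genes per bin) in the 3 genotypes, with vertical lines at the members. In control cells the fold change of UFL1 exceeds that of 96.5% of genes, that of UFM1 93.9% and that of CDK5RAP3 92.2%; genes beyond 3 on either side are not drawn.

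The members that rose in control cells are also the 4 for which a promoter sequence was found in the RefSeq table of build GRCh38.p14. No promoter of UFC1, UFSP1 or DDRGK1 was found, so no member that did not rise in control cells could be compared. The sequences found are shown because ER stress acts on promoters through known short motifs. Each runs 5′ to 3′ along the gene from 250 bases before the transcript's start to its base 30, and capitals mark the motif matches described after them. CDK5RAP3 has 2 starts in the table and its second is shown, since the first held no match.
UFM1, chr13:38349601-38349880, plus strand: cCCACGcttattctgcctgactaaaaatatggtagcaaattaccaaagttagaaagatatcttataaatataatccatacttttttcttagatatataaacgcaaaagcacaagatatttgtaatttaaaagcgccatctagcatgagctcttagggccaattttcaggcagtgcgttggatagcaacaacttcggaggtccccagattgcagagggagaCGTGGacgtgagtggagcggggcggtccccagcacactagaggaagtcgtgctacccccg
UFL1, chr6:96521556-96521835, plus strand: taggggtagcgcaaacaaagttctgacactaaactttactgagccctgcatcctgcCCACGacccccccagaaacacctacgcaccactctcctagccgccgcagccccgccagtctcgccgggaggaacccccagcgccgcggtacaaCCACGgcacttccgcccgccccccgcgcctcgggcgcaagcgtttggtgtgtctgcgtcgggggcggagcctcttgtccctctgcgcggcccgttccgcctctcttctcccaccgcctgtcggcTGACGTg
CDK5RAP3, chr17:47970863-47971142, plus strand: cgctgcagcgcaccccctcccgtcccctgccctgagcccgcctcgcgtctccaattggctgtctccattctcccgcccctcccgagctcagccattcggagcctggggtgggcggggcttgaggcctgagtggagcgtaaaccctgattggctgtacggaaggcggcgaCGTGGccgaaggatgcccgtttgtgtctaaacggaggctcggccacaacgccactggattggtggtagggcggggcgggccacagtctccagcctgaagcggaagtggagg
UFSP2, chr4:185425935-185426214, minus strand: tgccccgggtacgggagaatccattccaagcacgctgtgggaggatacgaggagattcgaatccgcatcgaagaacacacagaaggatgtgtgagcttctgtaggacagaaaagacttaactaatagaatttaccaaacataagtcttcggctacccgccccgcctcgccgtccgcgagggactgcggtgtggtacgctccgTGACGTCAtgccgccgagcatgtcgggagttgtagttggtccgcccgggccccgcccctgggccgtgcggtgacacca

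Motifs were searched on both strands in windows from 250 bases before to 50 bases after the start, and the share of all 35116 promoters that hold each is given beside it. The letters ACGTCA, named as the core of the XBP1s motif, were found in 7.98% of promoters. They lie in UFL1 from base 24 of the transcript, on the reverse strand, and in UFSP2 with first bases at −48 and −46 from the start, where overlapping matches on both strands form a palindrome. The letters CCACG, one arm of the ER stress element, were found in 38.1% of promoters. They were present in UFM1, UFL1 and the second start of CDK5RAP3. The full ER stress element (CCAAT, 9 bases and CCACG), held by 0.0769% of promoters, had no match in these 5 windows. Neither had its second form (ATTGG, 1 base and CCACG, in 0.0541%), TGACGTGG (in 0.729%) or the ATF4 composite TGATGNAAT (in 0.991%). ACGTCA and TGACGTGG share letters on opposite strands, and CCACG is part of both ER stress elements. A match describes letters in a window and is not a measured site.

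Members differed both ways between CARM1 knockout and control cells, and with XBP1 knocked down the members called were lower and were called with tunicamycin. With vehicle, CDK5RAP3, DDRGK1 and UFSP2 were higher in the CARM1 knockout and UFSP1, UFC1 and UFL1 were lower, 3 of 7 each way, where 37.5% of all genes were called higher and 36.9% lower. With tunicamycin, 2 of 7 were higher, DDRGK1 and CDK5RAP3, and 4 were lower, UFSP1, UFL1, UFC1 and UFM1, where 38.4% of all genes were called higher and 36.8% lower. Since most genes were called in these comparisons, the counts were not read as particular to the members. In the XBP1 knockdown with vehicle, 0 of 7 members were called by edgeR, where 2.07% of all genes were called higher and 3.03% lower. At an unadjusted p under 0.05 the same test counted 2 lower members, and DESeq2 called 0. With tunicamycin 4 of 7 were lower, UFM1, UFL1, UFSP2 and CDK5RAP3, and 0 higher. DESeq2 called 3 lower, and the count of higher members was 0 also at an unadjusted p under 0.05 and by DESeq2. Among all genes 6.99% were called higher and 8.55% lower there. The median log2 fold change of the members was −0.15 and −0.39 in the knockout with vehicle and tunicamycin, beside −0.03 and −0.02 over all genes. It was −0.08 and −0.22 in the knockdown, beside −0.0032 and 0.00084.

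Whether the response to tunicamycin differed from that of control cells was tested as the interaction of genotype and treatment. In the CARM1 knockout the response of 4 of 7 members was smaller, UFL1, UFSP2, CDK5RAP3 and UFM1, and that of 0 was larger, where 12.4% of all genes were called below 0 and 10.5% above. UFL1 and UFM1 lay below control with tunicamycin, by −0.81 and −0.39. CDK5RAP3 and UFSP2 instead lay above control with vehicle, by 0.73 and 0.41, and differed by 0.43 and −0.05 with tunicamycin. The knockout values of UFSP2 are uncertain, as described below. In the XBP1 knockdown the response of 2 of 7 was smaller, UFM1 and UFL1, and that of 0 larger, where 1.67% of all genes were called below 0 and 0.364% above. The counts above 0 were 0 also at an unadjusted p under 0.05 and by DESeq2. The median interaction term of the members was −0.29 in the knockout, beside −0.01 over all genes, and −0.09 in the knockdown, beside 0. Both interactions use the same 6 control libraries. UFM1 and UFL1 are on a list of direct targets that the study chose partly on these same libraries. Their direction in both genotypes is thus not independent evidence. For this list the study also required binding of XBP1s and CARM1 to a gene, measured by cut-and-run, which was not examined here.

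**Figure D3:**
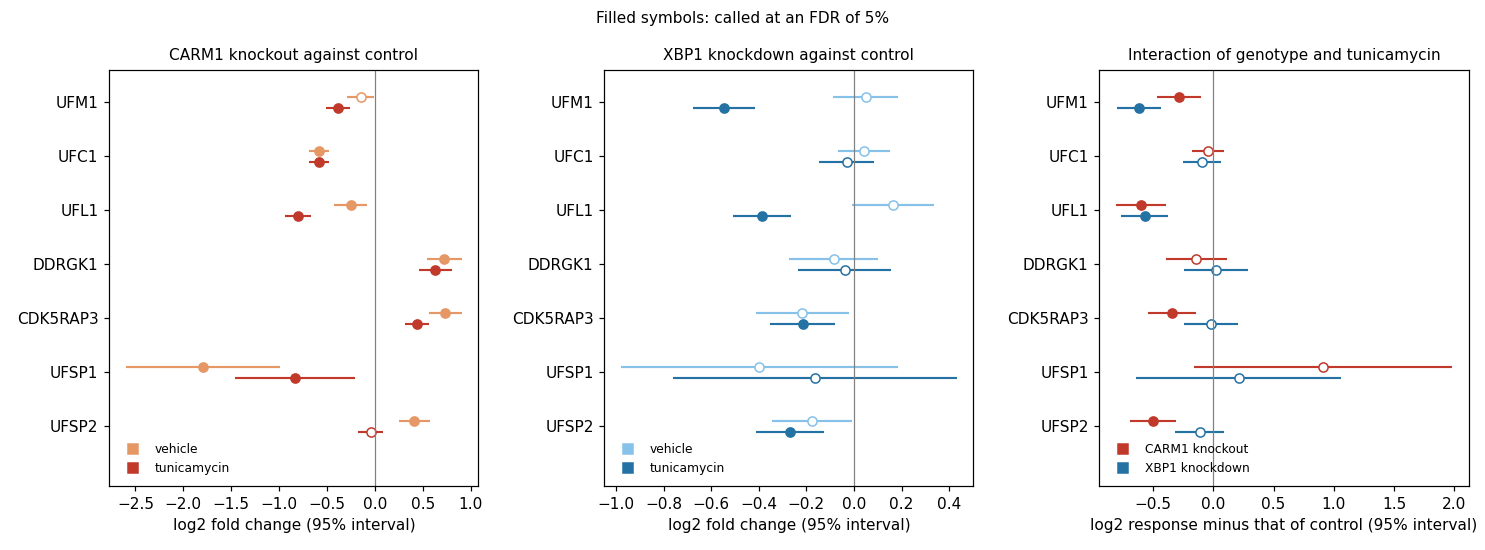
Log2 fold changes of the members against control cells in the CARM1 knockout (left) and the XBP1 knockdown (middle), with vehicle and with tunicamycin, and the interaction terms of both genotypes (right), each with its 95% interval; filled symbols were called at an FDR of 5%. UFC1 lies at −0.59 and −0.58 in the knockout under both treatments, while UFM1 and UFL1 leave 0 in the knockdown only with tunicamycin, at −0.55 and −0.39.

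UFM1 (ENSG00000120686), the modifier itself, lies on chromosome 13 of GRCh37 from 38923986 to 38937756 on the plus strand. In control cells it was at 66.2, 65.6 and 71.6 CPM with vehicle and at 157, 143 and 164 CPM with tunicamycin. In CARM1 knockout cells it was at 67.4, 60.3 and 61.3 CPM and then at 123, 113 and 117 CPM. Knockdown cells held 68.2, 73.6 and 69.8 CPM and then 111, 106 and 101 CPM. With vehicle each genotype overlapped its neighbour in the order of means, whereas with tunicamycin the groups were separate, control above knockout above knockdown. The log2 fold change with tunicamycin was 1.2 (standard error 0.0669, adjusted p = 4.58e-10, edgeR) in control, 0.93 (0.0533, 3.44e-12) in knockout and 0.58 (0.0573, 9.17e-07) in knockdown cells. Against control cells with tunicamycin the knockout differed by −0.39 (standard error 0.0570, adjusted p = 1.87e-05, edgeR) and the knockdown by −0.55 (0.0613, 1.75e-05). With vehicle the knockout differed by −0.15 (95% interval −0.29 to −0.0094, adjusted p = 0.0511, edgeR), and by −0.20 with adjusted p = 0.0238 without its replicate 1. The knockdown with vehicle differed by 0.05 (95% interval −0.09 to 0.18, adjusted p = 0.749, edgeR). The interaction with the knockdown was −0.62 (standard error 0.0875, adjusted p = 0.000431, edgeR) and kept its call under each alternative. The interaction with the knockout was −0.29 (standard error 0.0879, adjusted p = 0.0225, edgeR) and depended on the filter, the adjusted p being 0.0976 without a filter and 0.0590 with at least 10 counts in every library. It also lost its call without replicate 1 (−0.20) or 2 (−0.20) of control with vehicle, 1 (−0.20) or 3 (−0.17) of control with tunicamycin, replicate 1 of the knockout with vehicle (−0.23) or 2 with tunicamycin (−0.26), with adjusted p up to 0.236 in edgeR.

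**Figure D4:**
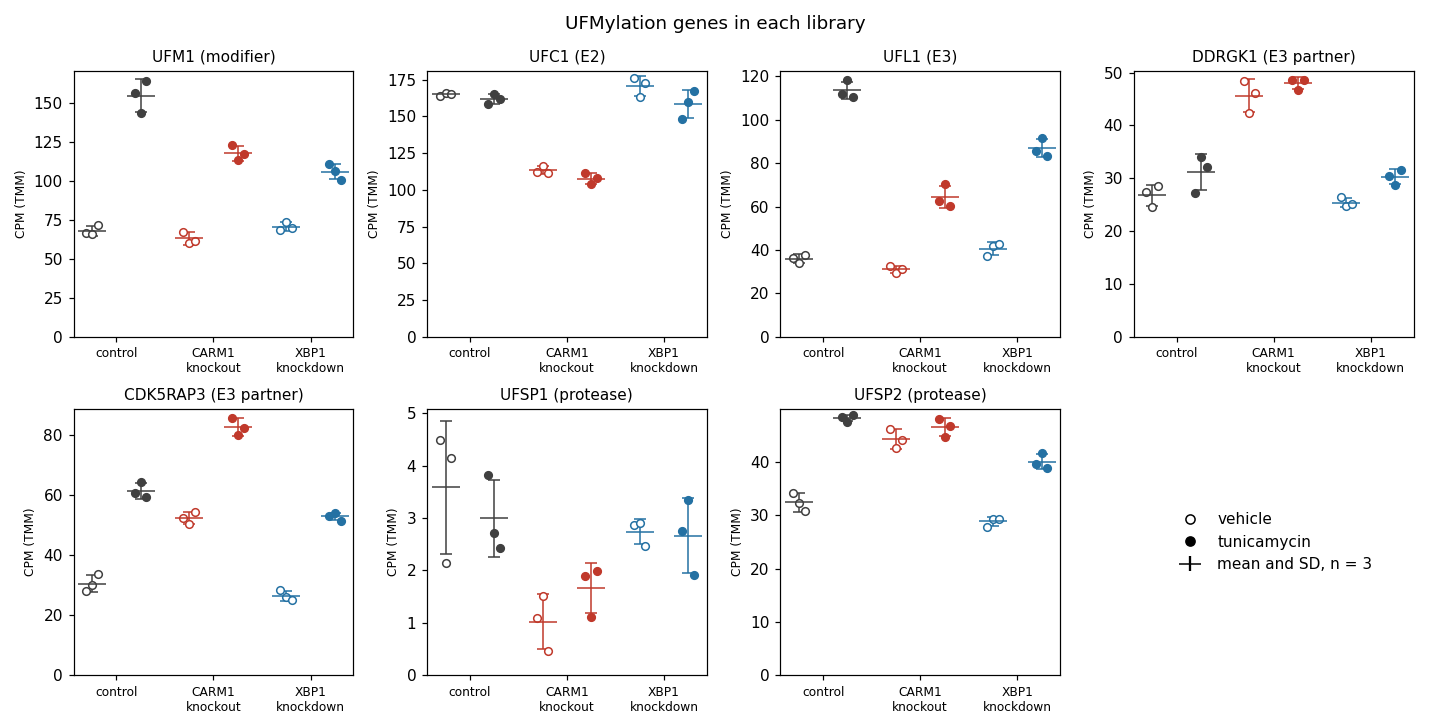
CPM of the 7 members in each of the 18 libraries (points; open for vehicle, filled for tunicamycin), with mean and SD of the 3 libraries of a group; each vertical axis starts at 0, and in the panel titles E2 stands for the conjugating enzyme and E3 for the ligase. UFM1 and UFL1 show a step with tunicamycin that is highest in control cells, UFC1 is lower and DDRGK1 higher in the CARM1 knockout under both treatments, and UFSP1 scatters at a few CPM.

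UFC1 (ENSG00000143222), the conjugating enzyme, lies on chromosome 1 of GRCh37 from 161122566 to 161128646 on the plus strand. In control cells it was at 164, 166 and 166 CPM with vehicle and at 159, 165 and 162 CPM with tunicamycin. Its knockdown levels were 176, 163 and 173 CPM with vehicle and 148, 160.1 and 167 CPM with tunicamycin. The CARM1 knockout held 112, 116 and 111 CPM with vehicle and 111, 104 and 108 CPM with tunicamycin. All 6 knockout libraries thus lay below the 12 others, which overlapped one another. The knockout differed from control cells by −0.59 (standard error 0.0474, adjusted p = 1.76e-08, edgeR) with vehicle and by −0.58 (0.0482, 3.3e-08) with tunicamycin. The response to tunicamycin did not pass the test, at −0.01 (95% interval −0.13 to 0.10, adjusted p = 0.868, edgeR) in control, −0.04 (−0.13 to 0.05, 0.543) in knockout and −0.12 (−0.23 to 0.00087, 0.114) in knockdown cells. In control cells with vehicle UFC1 had the smallest coefficient of variation of the 7 members, with an SD of 1.22 CPM around a mean of 165 CPM (n = 3). That coefficient, 0.738%, is below the 2.09% that counting error alone amounts to, so it does not show an unusually steady level. In the knockdown with tunicamycin it was 6.08%.

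UFL1 (ENSG00000014123), the ligase, lies on chromosome 6 of GRCh37 from 96969471 to 97003152 on the plus strand. In control cells it was at 36.3, 34.0 and 37.9 CPM with vehicle and at 112, 118 and 111 CPM with tunicamycin. The CARM1 knockout held 32.5, 29.5 and 31.4 CPM and then 62.6, 70.4 and 60.4 CPM. With XBP1 knocked down it was at 37.2, 41.6 and 43.0 CPM and then at 85.6, 91.5 and 83.4 CPM. The tunicamycin groups were separate from each other and from all vehicle groups, in the order control, knockdown, knockout, so that the lower 2 stood in the opposite order to UFM1. Its log2 fold change with tunicamycin was 1.67 (standard error 0.0681, adjusted p = 9.63e-12, edgeR) in control, 1.09 (0.0715, 3.95e-11) in knockout and 1.09 (0.0678, 5.32e-09) in knockdown cells. With tunicamycin the knockout lay below control by −0.81 (standard error 0.0632, adjusted p = 1.7e-08, edgeR) and the knockdown by −0.39 (0.0576, 0.000253). Already with vehicle the knockout differed by −0.26 (standard error 0.0799, adjusted p = 0.00913, edgeR), a call that DESeq2 did not share (−0.22, adjusted p = 0.0571), while the knockdown differed by 0.16 (95% interval −0.0068 to 0.34, adjusted p = 0.293, edgeR). The interaction was −0.60 (standard error 0.0995, adjusted p = 0.000151, edgeR) in the knockout and −0.57 (0.0944, 0.00159) in the knockdown. Both kept their calls under each alternative, in the ranges −0.67 to −0.49 and −0.63 to −0.53 when single libraries were left out.

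DDRGK1 (ENSG00000198171), which anchors the ligase in the ER membrane, lies on chromosome 20 of GRCh37 from 3170996 to 3185331 on the minus strand. The CARM1 knockout held 48.4, 42.3 and 46.1 CPM with vehicle and 48.6, 46.7 and 48.6 CPM with tunicamycin. Control cells held 27.3, 24.5 and 28.5 CPM and then 27.3, 34.0 and 32.2 CPM. Knockdown cells held 26.4, 24.7 and 25.1 CPM and then 30.5, 28.8 and 31.6 CPM. All 6 knockout libraries lay above the 12 others, the reverse of UFC1. The knockout was higher than control by 0.72 (standard error 0.0843, adjusted p = 1.3e-06, edgeR) with vehicle and by 0.63 (0.0816, 5.22e-06) with tunicamycin. The response to tunicamycin was 0.23 (95% interval 0.02 to 0.44, adjusted p = 0.0746, edgeR) in control cells and 0.25 (0.07 to 0.42, adjusted p = 0.0243) in knockdown cells, almost equal values on either side of the threshold. The control value passed with all 18 libraries in one fit (adjusted p = 0.0338) and without replicate 1 of control with tunicamycin (0.30, adjusted p = 0.0243, edgeR). The knockdown value failed in DESeq2 (adjusted p = 0.0642), and in edgeR without replicate 2 (0.23) or 3 (0.24) with vehicle or replicate 1 (0.25) or 3 (0.22) with tunicamycin. In the knockout it was 0.11 (95% interval −0.03 to 0.25, adjusted p = 0.209, edgeR).

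CDK5RAP3 (ENSG00000108465), the other ligase partner, lies on chromosome 17 of GRCh37 from 46045176 to 46059147 on the plus strand. Control libraries held 27.9, 29.99 and 33.5 CPM with vehicle and 60.7, 64.4 and 59.2 CPM with tunicamycin. The CARM1 knockout held 52.3, 50.3 and 54.5 CPM and then 85.6, 79.8 and 82.5 CPM. Knockdown cells held 28.3, 26.0 and 25.0 CPM and then 53.0, 54.1 and 51.5 CPM. The knockout with vehicle thus reached the level of the knockdown with tunicamycin, with which it overlapped, and the knockout with tunicamycin stood above every other library. The log2 fold change with tunicamycin was 1.02 (standard error 0.0810, adjusted p = 3.34e-08, edgeR) in control, 0.70 (0.0557, 1.01e-09) in knockout and 0.99 (0.0728, 3.32e-08) in knockdown cells. The knockout was higher than control by 0.73 (standard error 0.0799, adjusted p = 6.21e-07, edgeR) with vehicle and by 0.43 (0.0577, 6.62e-06) with tunicamycin. Its interaction was −0.34 (standard error 0.0963, adjusted p = 0.0132, edgeR), with an adjusted p of 0.0675 without a filter on low counts. That call was also lost without replicate 1 (−0.21) or 2 (−0.26) of control with vehicle or without replicate 1 (−0.27), 2 (−0.25) or 3 (−0.30) of control with tunicamycin, with adjusted p up to 0.143 in edgeR. The knockdown differed from control by −0.22 with tunicamycin (standard error 0.0641, adjusted p = 0.0320, edgeR). That call failed in DESeq2 (adjusted p = 0.0588) and in 5 of 6 edgeR fits without 1 library, at −0.18 without replicate 2 and −0.24 without 3 of control, and at −0.22, −0.23 and −0.20 without replicates 1, 2 and 3 of the knockdown. With vehicle the knockdown differed by −0.22 as well (95% interval −0.41 to −0.02, adjusted p = 0.216, edgeR), which was not called. The interaction with the knockdown was −0.02 (95% interval −0.25 to 0.21, adjusted p = 0.984, edgeR).

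UFSP1 (ENSG00000176125), a protease that matures UFM1, lies on chromosome 7 of GRCh37 from 100486342 to 100487336 on the minus strand. It was the member with the fewest counts. Its control levels were 4.49, 2.14 and 4.15 CPM with vehicle and 3.83, 2.72 and 2.43 CPM with tunicamycin. Knockout levels were 1.09, 1.51 and 0.458 CPM and then 1.89, 1.11 and 1.99 CPM. Knockdown cells held 2.86, 2.91 and 2.46 CPM and then 2.75, 3.34 and 1.90 CPM. The knockout libraries lay below the control libraries of the same treatment, and otherwise each group overlapped its neighbour in the order of means. The knockout differed from control by −1.80 (standard error 0.376, adjusted p = 0.000485, edgeR) with vehicle and by −0.84 (0.292, adjusted p = 0.0176) with tunicamycin. The second call was lost in DESeq2 (adjusted p = 0.0512), without replicate 1 of control (−0.61, adjusted p = 0.0994, edgeR) and without replicate 2 of the knockout (−0.61, adjusted p = 0.0858). The coefficient of variation between replicates was 9.04 to 52.0%, and counting error alone amounts to 14.2 to 28.9%. The responses to tunicamycin had wide intervals, −0.86 to 0.35 in control, −0.15 to 1.51 in knockout and −0.61 to 0.51 in knockdown cells.

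UFSP2 (ENSG00000109775), the protease that also releases UFM1 from its targets, lies on chromosome 4 of GRCh37 from 186320691 to 186347133 on the minus strand. In control cells it was at 34.3, 32.3 and 30.7 CPM with vehicle and at 48.5, 47.5 and 48.8 CPM with tunicamycin. Knockdown cells held 27.9, 29.3 and 29.4 CPM and then 39.6, 41.7 and 38.9 CPM. In both genotypes the treatments were separate, with log2 fold changes of 0.59 (standard error 0.0752, adjusted p = 8.34e-06, edgeR) in control and 0.47 (0.0727, 9.67e-05) in knockdown cells. The CARM1 knockout held 46.3, 42.6 and 44.2 CPM with vehicle and 48.1, 44.8 and 46.7 CPM with tunicamycin, which overlapped, at 0.10 (95% interval −0.03 to 0.24, adjusted p = 0.226, edgeR). It was higher than control with vehicle by 0.41 (standard error 0.0752, adjusted p = 0.000153, edgeR), and with tunicamycin it differed by −0.05 (95% interval −0.18 to 0.09, adjusted p = 0.509). The interaction was −0.50 in the knockout (standard error 0.0930, adjusted p = 0.000449, edgeR) and kept its call under each alternative. The knockdown lay below control with tunicamycin by −0.27 (standard error 0.0675, adjusted p = 0.0134, edgeR), a call lost without replicate 3 of control (−0.26, adjusted p = 0.0604) or of the knockdown (−0.25, adjusted p = 0.0639). With vehicle it differed by −0.18 (95% interval −0.34 to −0.0079, adjusted p = 0.245, edgeR) and the interaction was −0.11 (−0.32 to 0.09, adjusted p = 0.688), neither of which was called. The end of UFSP2 overlaps by 1092 bases that of ANKRD37, a gene induced by low oxygen on the opposite strand. ANKRD37 was at 3.15 to 6.23 CPM in control and knockdown libraries, at 104 to 122 CPM in knockout libraries with vehicle and at 31.7 to 35.3 CPM in those with tunicamycin. Whether the counting used strand is not given in the sources used here, so the values of UFSP2 in the knockout are uncertain.

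A list of 9 further genes of the pathway was also described, and all 9 were tested. It holds ODR4, which localises UFSP2, the ribosome-associated SAYSD1, the modified proteins RPL26, RPN1, CYB5R3, TRIP4 and MRE11, the close copy RPL26L1 and the ubiquitin ligase SYVN1, which acts on proteins leaving the ER. With tunicamycin 4 of 9 rose and 1 fell in control cells, 5 rose and 2 fell in the knockout, and 4 rose and 1 fell in the knockdown. The shares of all genes called higher and lower were 22.0% and 19.9% in control, 20.6% and 18.8% in knockout, and 19.2% and 19.0% in knockdown cells. SYVN1 rose in control cells by 2.91 on the log2 scale, RPN1 by 0.96, ODR4 by 0.70 and TRIP4 by 0.60, and SAYSD1 fell by 0.38. The call of SAYSD1 was lost in DESeq2 and without replicate 1 (−0.27) or 2 (−0.36) of control with vehicle or 2 (−0.35) or 3 (−0.38) with tunicamycin. The median over the list was 0.15 in control, 0.16 in knockout and 0.10 in knockdown cells.

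The interaction was called below 0 for 3 of the 9 in the knockout, CYB5R3 (−0.53), SYVN1 (−0.47) and RPN1 (−0.37), and for 1, SYVN1 (−0.45), in the knockdown. That of RPN1 was lost without replicate 1 (−0.30) or 2 (−0.24) of control with vehicle or 1 (−0.28) or 3 (−0.28) with tunicamycin. The count called above 0 was 0 in both. SYVN1 and RPN1, like UFM1 and UFL1, are on the study's list of targets chosen partly on these libraries and partly on cut-and-run binding. RPL26 and RPL26L1 are near-identical copies between which the counting could split reads, and their values are uncertain.

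Against control with vehicle 7 of the 9 were higher in the knockout and 2 lower, beside 37.5% and 36.9% of all genes, and with tunicamycin 6 were higher and 2 lower, beside 38.4% and 36.8%. In the knockdown 0 were called with vehicle, beside 2.07% and 3.03%, and with tunicamycin 1 was higher and 4 lower, beside 6.99% and 8.55%. A second list held 39 genes of other ubiquitin-like modifiers (NEDD8, SUMO, ISG15, URM1, FAU and the autophagy proteins ATG12 and LC3), of which 38 were tested. With tunicamycin 15 rose and 10 fell in control cells, 10 rose and 7 fell in the knockout, and 11 rose and 11 fell in the knockdown, with medians of 0.07, 0.02 and −0.02, beside the same shares of all genes. For these the interaction was called below 0 for 7 and above 0 for 4 in the knockout and for 0 in either direction in the knockdown, beside 12.4% and 10.5% of all genes in the knockout and 1.67% and 0.364% in the knockdown.

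**Figure D5:**
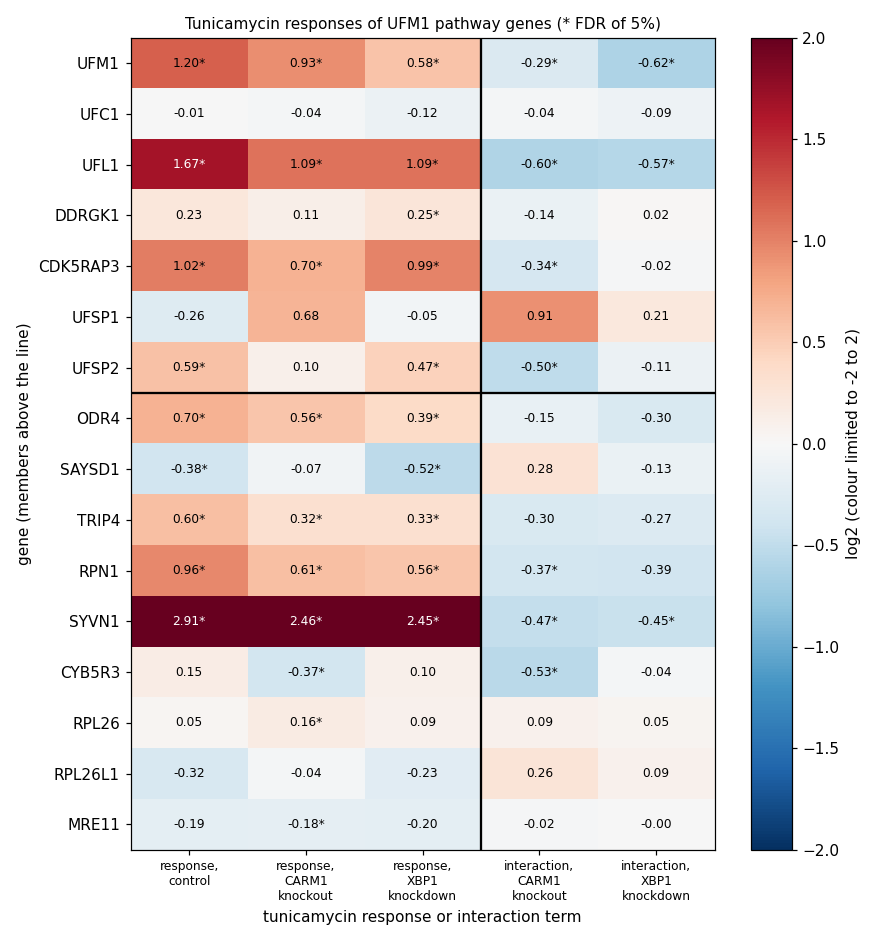
Log2 fold change with tunicamycin in the 3 genotypes (first columns) and interaction terms (last columns) for the 7 members, above the line, and the 9 further pathway genes; red is above 0 and blue below, the colour is capped at 2 on either side, numbers are log2 values and a star marks a call at an FDR of 5%. SYVN1 is highest in each genotype, at 2.91, 2.46 and 2.45, while UFC1 lies between −0.12 and −0.01.

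The level of each member over the 18 libraries was also compared with that of the other members and of all well-measured genes, by Pearson correlation of log2 CPM. These are descriptions, since the points share 6 groups of 3 libraries. Between members r was highest for UFM1 and UFL1, 0.949, and for CDK5RAP3 and UFSP2, 0.921, and lowest for UFC1 and DDRGK1, −0.941. Among 9378 other genes whose log2 CPM averaged 3 or more, UFM1 was most like SSR2 (0.988), SERP1 (0.982) and PRRC1 (0.981). UFL1 was most like CEP120 (0.987), SLC35B1 (0.986) and DERL2 (0.984), a different set from that of UFM1. UFC1 was most like GATD3 (0.989), SYPL1 (0.987) and LRP4 (0.987), and DDRGK1 most like VPS28 (0.982), TPD52L2 (0.982) and PCED1A (0.976). CDK5RAP3 was most like HSPA13 (0.987), STX5 (0.984) and CDK2AP2 (0.980), and UFSP2 most like UBXN4 (0.962), ATP6AP2 (0.961) and TCF25 (0.959). For UFSP1 the highest values were 0.880 for EIF3J-DT, 0.863 for ZNF189 and 0.860 for FBXL17, lower than for each of the other members.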

How the data were processed

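RNA of A1847 cells was sequenced from mRNA 3′ ends (single reads of 75 nt). The authors used bowtie2 against hg19, then RSEM, and deposited its expected counts for Ensembl genes, all of them whole and not normalized. The labels give RSEM 1.2.3 and the study's methods another version of it, and a filter, the Ensembl release and the use of strand are not given in the sources used here. Reads from 3′ ends do not scale with transcript length. Levels were not compared between genes.

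The 18 columns were assigned by their names, and 0 were left unmapped. Genes were filtered with edgeR 4.0.16 (filterByExpr, minimum count 10, over all libraries) in R 4.3.3, normalized by TMM over the libraries of a fit and tested by the quasi-likelihood F test on the groups compared, with Benjamini-Hochberg adjustment over all 17317 genes at 0.05. Standard errors were derived as |log2 fold change|/√F. CPM used TMM over all libraries, with a prior count of 2 for log values. Counting error covers the reads only. With 3 libraries against 3 an exact permutation test cannot go below p = 0.1 and was not used. Between replicates the chi-square per degree of freedom was 1.84 to 6.89 over 18 pairs, so no library was a copy of another.

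Symbols and GRCh37 positions came from the annotation for 55501 genes, and promoters from RefSeq (GRCh38.p14). The named genes were the members, the modified genes, the listed pathway genes and the 3 genes most like each member. ANKRD37 was added after its values were seen. 1 gene of the pathway list is not reported here. The members and lists were chosen with earlier results of these data known. Alternatives were DESeq2's size factors, DESeq2 1.42.0, omitting the filter, requiring 10 counts per library throughout, one fit of all libraries, a replicate block and leaving out each library. The scripts were tested on simulated data.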

Additional observations from a re-analysis of the deposited data

Results flagged for a closer look

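The response to tunicamycin differed from that of control cells, by the interaction term of edgeR at an FDR of 5%, for the following genes, each value being the log2 response in the modified genotype minus that in control cells. In the CARM1 knockout the term was −0.60 for UFL1, −0.50 for UFSP2, −0.34 for CDK5RAP3 and −0.29 for UFM1 among the members. In the XBP1 knockdown it was −0.62 for UFM1 and −0.57 for UFL1. Among the further pathway genes it was −0.53 for CYB5R3, −0.47 for SYVN1 and −0.37 for RPN1 in the knockout. In the knockdown it was −0.45 for SYVN1. The knockout calls of UFM1, CDK5RAP3 and RPN1 were lost without some single libraries. Those of UFM1 and CDK5RAP3 were also lost without a filter on low counts. The knockout value of UFSP2 is uncertain because its end overlaps ANKRD37. With 3 libraries per group, no group was large enough for a test of single outlying libraries.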

How the results depend on the processing

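Of the 34 values called for the members, 195 of 202 recomputed under the other settings kept direction and call, 7 kept the direction and lost the call, and 0 reversed. Of 240 recomputed without 1 library, 216 kept both and 24 lost the call. For the knockout interaction the count of members fell from 4 to 2 without a filter on low counts and ranged from 2 to 4 without single libraries, being 2 without replicate 1 or 2 of control with vehicle or replicate 1 or 3 of control with tunicamycin. For the knockdown against control with tunicamycin it ranged from 2 to 4, being 2 without replicate 3 of either group. The cause was not tested. Values that were not called and changed sign were the following. UFC1 in the knockout interaction was 0.0277 without a filter and 0.0185 with at least 10 counts in every library, and −0.0651 to 0.0369 without single libraries. UFSP2 in the knockout with tunicamycin was 0.0059 with at least 10 counts, and CDK5RAP3 in the knockdown interaction was 0.0144 without a filter and −0.0970 to 0.0367 without single libraries. Without single libraries the ranges were −0.0454 to 0.0894 for DDRGK1 in the knockdown interaction, and in the knockdown against control with tunicamycin −0.13 to 0.0250 for DDRGK1, −0.0712 to 0.0135 for UFC1 and −0.35 to 0.0444 for UFSP1. UFSP1 in the knockdown's response to tunicamycin was −0.23 to 0.14.

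With a replicate block the counts of members called were 4, 3 and 5 for tunicamycin in control, knockout and knockdown cells, the same as without it, and no call of a member changed. The labels give the groups the same replicate numbers. Same-numbered libraries did not deviate together over the genes tested, with correlations of −0.05 to 0.05 over 33 pairs of libraries, 0 of them over 0.1. These values do not tell whether same-numbered libraries shared a culture or a preparation. UFSP1 had no value with at least 10 counts in every library, since it was then left out. Levels with DESeq2's size factors differed from those with TMM by −1.49 to 1.51%. At 4 to 62 counts, UFSP1 limits what could be detected for it.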
